A study of Homo sapiens with 6 samples.

Results

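The 10 genes described here belong to the regulatory programme of epithelial-to-mesenchymal transition (EMT). They are the EMT transcription factors SNAI1, SNAI2, TWIST1, TWIST2, ZEB1 and ZEB2, the mesenchymal markers VIM and FN1, and GRHL2 and ESRP1, which are genes of epithelial cells and not mesenchymal markers. They were taken by gene symbol, and all 10 were found among the 46427 genes quantified. The samples were 6 preparations of MDA-MB-231, a single human line derived from metastatic, triple-negative breast cancer, whose messenger RNA was sequenced. Of these, 3 were treated with control-siRNA (siRNA that targets no gene of interest) and 3 with TAZ-siRNA, a pool of siRNAs against WWTR1, the gene that encodes the transcriptional co-activator TAZ. All cells were transfected with the same reagent and grown with 10% fetal bovine serum in DMEM that held 5.5 mM of glucose. The study asked whether loss of TAZ was accompanied by EMT, and the question here is which of these mRNAs differed between the groups.

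In EMT, epithelial cells loosen their junctions and take on a migratory, matrix-producing state. SNAI, ZEB and TWIST proteins bind E-box sequences, and SNAI and ZEB proteins repress epithelial genes such as CDH1 (E-cadherin). Vimentin (VIM) is the intermediate filament protein of mesenchymal cells and fibronectin (FN1) a glycoprotein of the extracellular matrix. GRHL2 maintains the epithelial state and opposes ZEB1, and ESRP1 directs the epithelial pattern of RNA splicing. MDA-MB-231 is known as a line with a mesenchymal phenotype and little E-cadherin.

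Libraries held 48307548 to 71749634 counts, so that the floor of 3 counts was 0.0411 to 0.0618 CPM (counts relative to the TMM-normalized library size), a limit that covers counting error only. The targeted gene, WWTR1, had a level of 191 ± 1.45 CPM in the control-siRNA group and of 16.5 ± 1.21 CPM in the TAZ-siRNA group (SD, n = 3 each). This was 8.65% of control in edgeR, and the labels name the siRNA but give no level. On the second principal component, with 18% of the variance, TAZ-siRNA replicate 3 lay at -28.1 and the other 5 libraries between -4.11 and 15.3, and results that rest on that library are also given without it. Of the defining genes of the cell line that were checked (VIM, CAV1, CD44, EGFR and AXL), all 5 were expressed and 3 (CAV1, EGFR and AXL) were lower with TAZ-siRNA. VIM and CD44 did not pass the edgeR threshold (log2 fold changes of -0.07 and -0.03). For comparison, 10.2% of the 16966 genes tested passed as lower, and the 5 genes were not tested as a set. The summed level of the 5 genes was 5659 to 5843 CPM in control-siRNA libraries and 5109 to 5275 CPM in TAZ-siRNA libraries. As these are bulk samples, fewer cells of a kind and less RNA per cell cannot be told apart.

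The levels of the 10 genes spanned a wide range. On the scale of FPKM, which corrects for length and so allows genes to be compared, VIM stood far above the others with 1537 FPKM in the control-siRNA group and 1529 FPKM in the TAZ-siRNA group. Its mean over the 6 libraries ranked 19 among all genes quantified. FN1 followed with 104 and 116 FPKM. Among the transcription factors, the order of the control-siRNA libraries was SNAI1 (17.1 to 21.8 FPKM), ZEB1 (12.6 to 13.4 FPKM), SNAI2 (7.62 to 8.20 FPKM) and ZEB2 (5.89 to 5.99 FPKM), and no neighbours in that order overlapped. With TAZ-siRNA, SNAI1 (14.0 to 28.6 FPKM), ZEB1 (12.8 to 14.2 FPKM) and SNAI2 (9.90 to 12.98 FPKM) overlapped with their neighbours, whereas ZEB2 (5.62 to 6.07 FPKM) lay below them. ESRP1 was below 1.1 FPKM in every library. GRHL2, TWIST1 and TWIST2 were at or near 0.

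Of the 10 genes, 7 had enough counts to be tested (SNAI1, SNAI2, ZEB1, ZEB2, VIM, FN1 and ESRP1), and 1 of the 7, SNAI2, passed an adjusted p of 0.05 in edgeR's quasi-likelihood test, as higher with TAZ-siRNA. Among all 16966 genes tested, 22.1% passed, 11.9% as higher and 10.2% as lower. The share of 14.3% among the 7 was thus no larger than in the transcriptome as a whole. The median log2 fold change of the 7 genes was 0.07, beside -0.01 over all genes tested, and it was -0.04 with GC content and length corrected for, -0.01 without TAZ-siRNA replicate 3 and 0.13 without TAZ-siRNA replicate 2. The 3 libraries of a group did not overlap with those of the other group for SNAI2, FN1 and ESRP1, that is, for 3 of 7 genes, beside 39.6% of all genes tested.

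**Figure D1:**
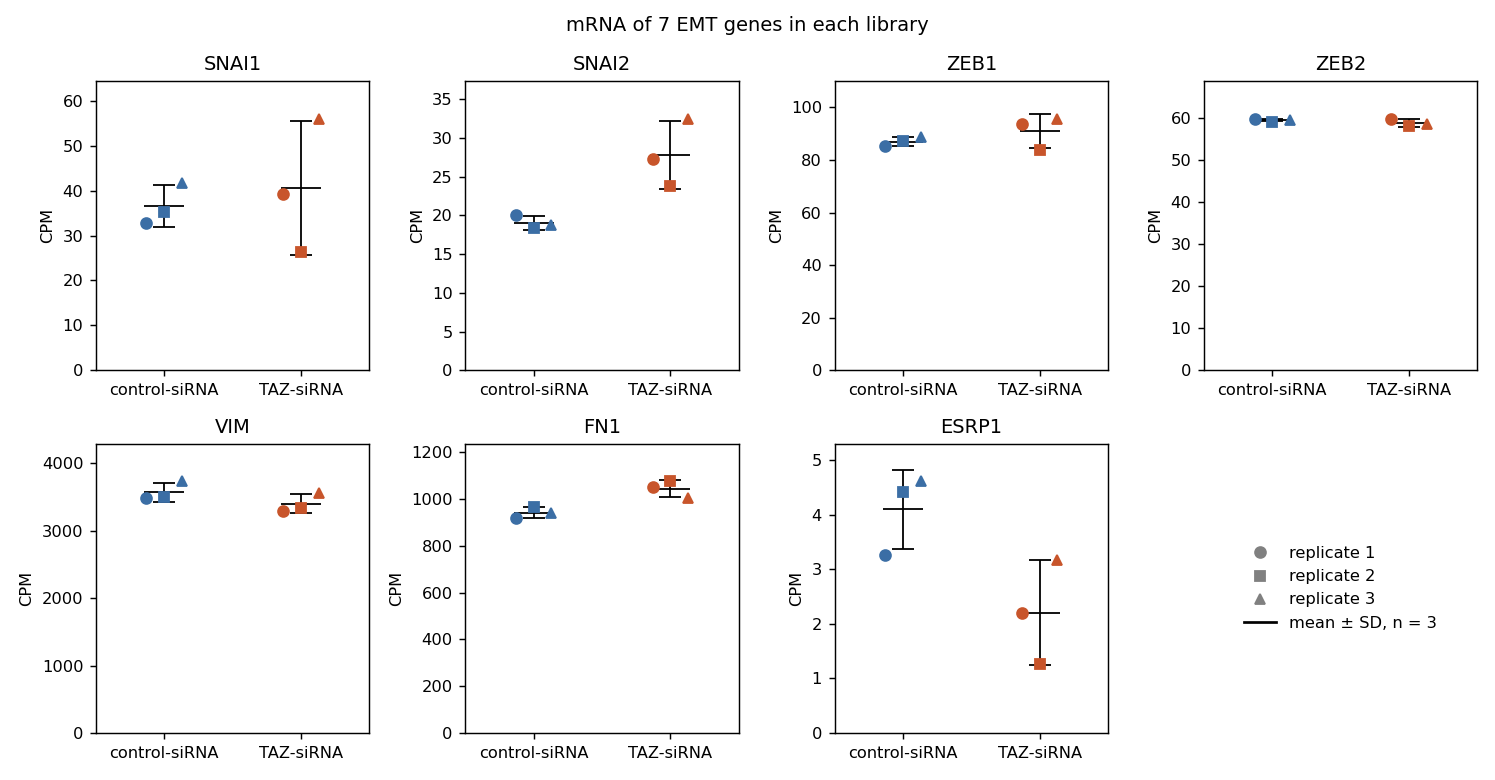
Level of the 7 tested EMT genes (vertical axis, CPM, from 0) in each of the 3 control-siRNA libraries (blue) and 3 TAZ-siRNA libraries (orange). Symbols mark the replicate, and lines and bars give the mean ± SD. SNAI2 and FN1 lie higher and ESRP1 lower in all TAZ-siRNA libraries, whereas the points of SNAI1, ZEB1, ZEB2 and VIM overlap between the groups.

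SNAI2 (gene 6591, GRCh38 chromosome 8, 48917598 to 48921429) encodes Slug, a zinc-finger repressor that binds E-boxes of epithelial promoters. Its level was 20.1, 18.4 and 18.7 CPM in the control-siRNA libraries and 27.3, 23.8 and 32.5 CPM in the TAZ-siRNA libraries. Each TAZ-siRNA library lay above each control-siRNA library, and the TAZ-siRNA libraries were also further apart from one another. SNAI2 rose from 19.1 ± 0.89 to 27.8 ± 4.40 CPM (SD, n = 3 each), a 1.46-fold increase with a log2 fold change of 0.55 (standard error 0.101, 95% confidence interval 0.32 to 0.77, edgeR adjusted p = 0.0044). The increase passed the threshold in each of the 16 alternative analyses of single genes, with a log2 fold change of 0.43 to 0.65. The lower of these values came from leaving out TAZ-siRNA replicate 3, the library with the highest level.

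SNAI1 (gene 6615, chromosome 20, 49982980 to 49988886) encodes Snail, the close relative of Slug and a protein with a short life in the cell. It showed no such difference. The level was 32.8, 35.3 and 41.8 CPM with control-siRNA and 39.2, 26.3 and 56.0 CPM with TAZ-siRNA, so that the lowest and the highest of the 6 values both came from TAZ-siRNA libraries. The log2 fold change was 0.15 (standard error 0.297, edgeR adjusted p = 0.767), with a confidence interval of -0.62 to 0.92 that covers both a fall and a rise of the size seen for SNAI2. Without TAZ-siRNA replicate 3 the value was -0.14. The spread of SNAI1 between replicates was unusual: its SD on the log2 scale with TAZ-siRNA, 0.543, was larger than that of 99.8% of the 9938 genes whose mean level reached 10 CPM, and with control-siRNA it was larger than that of 98.6% of them.

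TWIST1 (gene 7291, chromosome 7, 19113047 to 19117636) and TWIST2 (gene 117581, chromosome 2, 238848085 to 238910534) encode basic helix-loop-helix factors that induce EMT in several carcinomas. Both genes had 0 counts in all 6 libraries. A count of 0 allows a level of up to 3 counts, which is at most 0.0618 CPM in these libraries. No fold change can be given for either gene.

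ZEB1 (gene 6935, chromosome 10, 31318417 to 31529804) and ZEB2 (gene 9839, chromosome 2, 144384081 to 144520119) encode zinc-finger and homeobox repressors of CDH1 and of the miR-200 genes. ZEB1 was at 85.3, 87.2 and 88.6 CPM with control-siRNA and at 93.7, 83.7 and 95.7 CPM with TAZ-siRNA, where 1 library lay below all controls and the others above them. Its log2 fold change was 0.07 (standard error 0.0569, confidence interval -0.06 to 0.19, edgeR adjusted p = 0.45), and the sign turned to -0.04 when GC content and length were corrected for. ZEB2 had the smallest spread between replicates among the 7 genes tested. It was at 59.8, 59.1 and 59.5 CPM with control-siRNA and at 59.8, 57.9 and 58.5 CPM with TAZ-siRNA. The difference of -0.02 had a confidence interval of -0.12 to 0.09 on the log2 scale (edgeR adjusted p = 0.819). With GC content and length corrected for it was -0.13 (edgeR adjusted p = 0.143), outside that interval, and with the replicate number as a block in the same fit it was -0.14 and passed (edgeR adjusted p = 0.0332).

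ZEB1 shares its promoter region with ZEB1-AS1 (gene 220930, chromosome 10, 31307717 to 31320447), a long non-coding RNA read from the opposite strand. Of the RefSeq promoter windows of ZEB1 (GRCh38.p14, 250 bases before to 50 bases after a start), the one below is shown because it faces the ZEB1-AS1 start. The 2 starts lie 121 bases apart in opposite directions, and their windows have 220 bases in common. Capitals mark the E-box CACCTG or its reverse complement CAGGTG, the motif that SNAI and ZEB proteins bind. Of the 7 ZEB1 windows, 2 hold such a motif, and the one shown holds 3, with first bases at positions -242, -85 and 33, where the start is 0. At least 1 was found in 20.6% of the 35116 promoter windows of the RefSeq table and 3 or more in 0.635%. A match of letters is a description and does not show binding.
ZEB1 promoter, chr10:31318966-31319265, plus strand: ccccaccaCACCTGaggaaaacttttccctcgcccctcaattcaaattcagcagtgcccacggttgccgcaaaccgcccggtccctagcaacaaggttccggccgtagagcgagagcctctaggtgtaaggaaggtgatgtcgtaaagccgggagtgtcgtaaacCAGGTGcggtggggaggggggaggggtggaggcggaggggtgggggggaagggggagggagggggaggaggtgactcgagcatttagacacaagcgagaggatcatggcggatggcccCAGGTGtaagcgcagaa

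On the other side of this region, ZEB1-AS1 was lower with TAZ-siRNA. It was at 4.90, 5.77 and 4.69 CPM with control-siRNA and at 3.14, 3.57 and 2.90 CPM with TAZ-siRNA, without overlap. ZEB1-AS1 fell from 5.12 ± 0.569 to 3.20 ± 0.338 CPM (SD, n = 3 each), with a log2 fold change of -0.68 (standard error 0.128, edgeR adjusted p = 0.0045), and it was called with each of the 6 libraries left out. ZEB1 itself did not pass the test. The sources used here do not say if reads were counted by strand, and the genes overlap between 31318417 and 31320447, so that reads of one may have been assigned to the other. The difference between the 2 log2 fold changes was not tested.

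**Figure D2:**
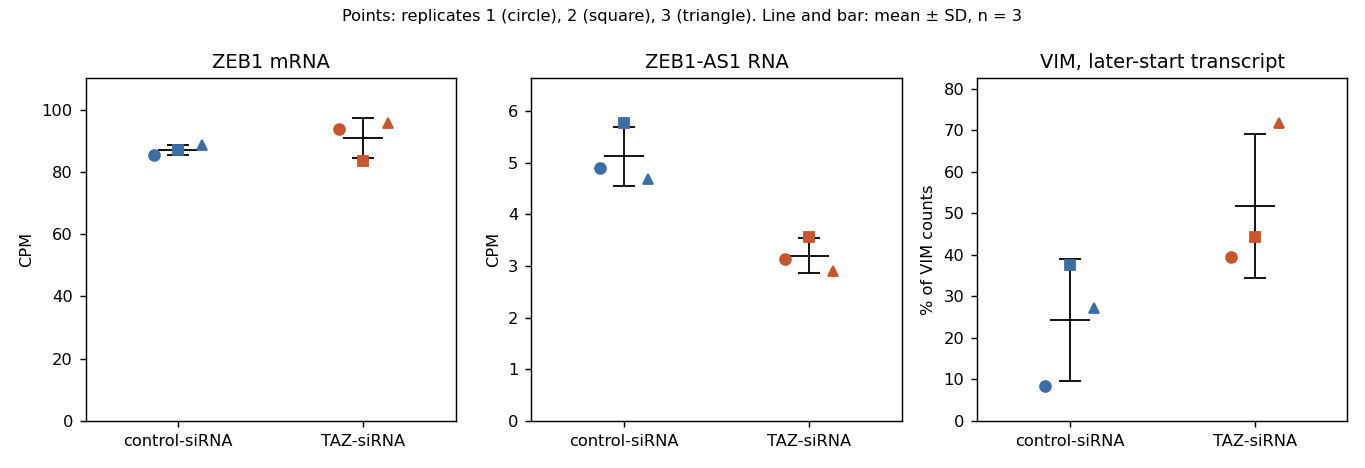
Level of ZEB1 and ZEB1-AS1 (left and middle, CPM) and share of VIM counts given to the VIM transcript with the later start (right, percent) in each library. Points are replicates and lines with bars give the mean ± SD (n = 3). ZEB1-AS1 and the VIM transcript share do not overlap between the groups, whereas ZEB1 does. The transcript share was not tested.

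ZEB1 and ZEB2 mRNAs are the best known targets of the miR-200 family, whose genes are in turn repressed by ZEB1. The 5 mature sequences are shown because their seeds (bases 2 to 8, in capitals) fall into 2 classes that differ in 1 base. The first class is AACACUG, of miR-141-3p and miR-200a-3p, and the second is AAUACUG, of miR-200b-3p, miR-200c-3p and miR-429. The sequences are those of RefSeq.
hsa-miR-141-3p: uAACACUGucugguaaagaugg
hsa-miR-200a-3p: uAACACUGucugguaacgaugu
hsa-miR-200b-3p: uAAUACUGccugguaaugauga
hsa-miR-200c-3p: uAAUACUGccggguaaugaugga
hsa-miR-429: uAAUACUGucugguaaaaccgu
These libraries of polyadenylated RNA do not measure mature miRNAs. The entries of the miRNA genes and MIR200CHG, the host gene of miR-200c and miR-141 (gene 105369635, chromosome 12, 6963245 to 6964447), were at 0 counts in all 6 libraries, as was ZEB2-AS1. The MIR200CHG promoter is shown because it is one of the miR-200 promoters that ZEB1 is known to repress, and 1 E-box (capitals) lies 78 bases before its start.
MIR200CHG promoter, chr12:6962995-6963294, plus strand: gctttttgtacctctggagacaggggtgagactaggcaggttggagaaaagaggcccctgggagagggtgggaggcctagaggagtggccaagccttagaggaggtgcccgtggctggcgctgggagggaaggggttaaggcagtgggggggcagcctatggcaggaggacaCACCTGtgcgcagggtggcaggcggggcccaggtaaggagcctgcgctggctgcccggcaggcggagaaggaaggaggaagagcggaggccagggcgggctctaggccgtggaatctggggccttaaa

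The transcript annotation gave further detail on the ZEB genes. ZEB2 has 3 RefSeq transcripts in the table, and NM_014795 took 69.2, 76.8 and 80.5% of the ZEB2 counts with control-siRNA and 81.2, 86.6 and 90.2% with TAZ-siRNA. The share was therefore higher in all TAZ-siRNA libraries, though the nearest libraries (80.5 and 81.2%) almost met. The ZEB2 total did not pass the test without offsets (log2 fold change -0.02), which does not show that it was equal. NM_001171653 took the larger part of the remainder, with 18.3 to 29.4% and 8.78 to 17.8%. ZEB1 has 44 transcripts, 36 of them with a count, and their estimates swung between libraries of 1 group: XM_017016597, for example, had 652, 1406 and 2056 counts with control-siRNA and 1459, 0 and 185 with TAZ-siRNA. Counts of transcripts are estimates that divide shared reads, and no test was made of them.

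VIM (gene 7431, chromosome 10, 17228241 to 17237593) did not differ between the groups beyond the spread of its replicates. It was at 3486, 3498 and 3732 CPM with control-siRNA and at 3296, 3341 and 3560 CPM with TAZ-siRNA, with overlapping ranges. The log2 fold change was -0.07 (confidence interval -0.21 to 0.07, edgeR adjusted p = 0.46). The transcript with the later start, XM_006717500 (from 17229273), took 8.45, 37.5 and 27.1% of the VIM counts with control-siRNA and 39.5, 44.2 and 71.7% with TAZ-siRNA, the remainder falling to NM_003380. These shares did not overlap but spread widely within each group, and no test was made of them. VIM-AS1 (gene 100507347, chromosome 10, 17214239 to 17229985), which overlaps the first part of VIM on the opposite strand, was at 4.32 ± 0.409 and 4.22 ± 0.775 CPM (SD, n = 3 each; log2 fold change -0.04, edgeR adjusted p = 0.886).

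FN1 (gene 2335, chromosome 2, 215360862 to 215436167) was slightly higher in every TAZ-siRNA library. It was at 917.5, 964 and 941.2 CPM with control-siRNA and at 1053, 1075 and 1006 CPM with TAZ-siRNA, a mean of 941 ± 23.3 against 1045 ± 35.2 CPM (SD, n = 3 each). The ranges did not overlap, but the difference was small, 1.11-fold, with a log2 fold change of 0.15 (standard error 0.0576, confidence interval 0.02 to 0.28) and did not pass the threshold (unadjusted p = 0.0245 and adjusted p = 0.086 in edgeR). It passed without TAZ-siRNA replicate 3 (log2 fold change 0.18, edgeR adjusted p = 0.011) and in DESeq2 (adjusted p = 0.0193). With GC content and length corrected for, the value was 0.02 (edgeR adjusted p = 0.834). All 34 annotated FN1 transcripts had counts, and the leading one, NM_002026, held 15.9 to 21.7% of them in the control-siRNA group and 10.0 to 19.2% in the TAZ-siRNA group.

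The promoter window of FN1 is shown because its cyclic AMP response element (TGACGTCA, in capitals, its own reverse complement) is a known control element of this gene. It lies 183 bases before the start and was found in 1.85% of the promoter windows. The window holds neither CACCTG nor GGAATG, the motif of the TEAD factors that carry TAZ to DNA, on either strand. GGAATG or its reverse complement CATTCC was present in 14% of all windows, among them 1 ZEB1 window (chr10:31318167-31318466, not the one shown above), which has CATTCC at position -1 and 1 E-box. The windows of VIM, ZEB2 and TWIST2 held none of the 3 motifs, and a window without these letters says nothing of a factor's action elsewhere.
FN1 promoter, chr2:215436019-215436318, minus strand: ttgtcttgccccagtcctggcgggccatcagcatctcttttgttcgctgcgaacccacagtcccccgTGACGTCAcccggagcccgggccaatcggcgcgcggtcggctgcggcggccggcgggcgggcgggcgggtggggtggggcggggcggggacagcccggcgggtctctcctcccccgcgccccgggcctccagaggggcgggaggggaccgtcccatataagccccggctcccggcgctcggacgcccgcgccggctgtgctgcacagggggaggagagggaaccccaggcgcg

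ESRP1 (gene 54845, chromosome 8, 94640999 to 94707466) was low, and lower still with TAZ-siRNA. Its level was 3.27, 4.42 and 4.61 CPM in the control-siRNA libraries and 2.19, 1.26 and 3.17 CPM in the TAZ-siRNA libraries, from 218, 275 and 224 counts and 160, 62 and 177 counts. The 3 TAZ-siRNA values were the lowest of the 6, though control-siRNA replicate 1 and TAZ-siRNA replicate 3 nearly met. The means were 4.10 ± 0.726 and 2.21 ± 0.956 CPM (SD, n = 3 each), with a log2 fold change of -0.88 (standard error 0.282, confidence interval -1.52 to -0.24). The difference just missed the threshold (edgeR adjusted p = 0.0539). It passed in 6 of 16 alternatives, among them DESeq2 (adjusted p = 0.00395) and the edgeR fit without TAZ-siRNA replicate 3 (log2 fold change -1.21, adjusted p = 0.00149). ESRP2, the paralog of ESRP1, was at 5.27 ± 0.736 and 3.86 ± 0.786 CPM (SD, n = 3 each), also without overlap (log2 fold change -0.46, edgeR adjusted p = 0.0675).

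GRHL2 (gene 79977) was essentially not detected. It had 3, 0 and 0 counts with control-siRNA and 3, 0 and 0 with TAZ-siRNA, which is at the floor in both groups, so no fold change is given. Its relatives GRHL1 and GRHL3 were tested, at 1.56 ± 0.170 and 1.65 ± 0.288 CPM for GRHL1 (SD, n = 3 each; edgeR adjusted p = 0.788) and at 0.254 ± 0.0480 and 0.417 ± 0.0521 CPM for GRHL3 (SD, n = 3 each; edgeR adjusted p = 0.139).

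**Figure D3:**
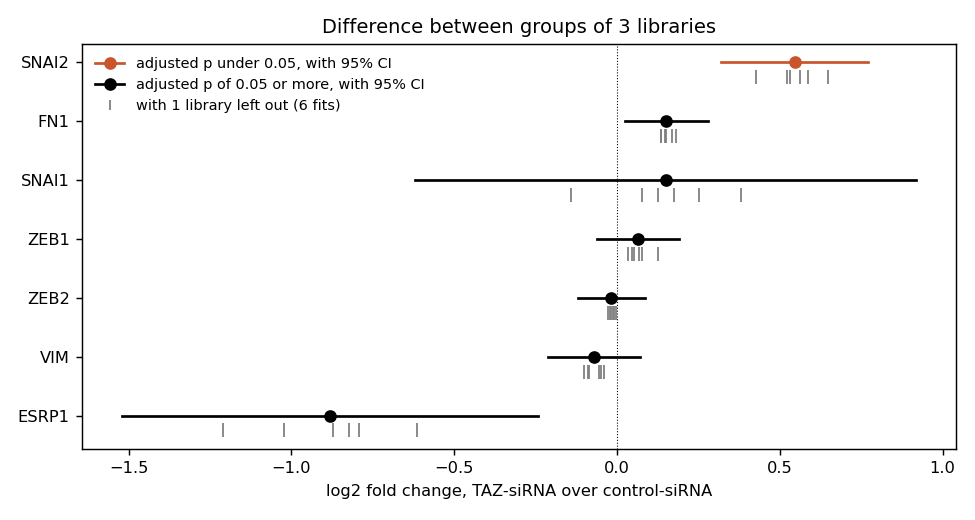
Log2 fold change of TAZ-siRNA over control-siRNA (horizontal axis) for the 7 tested EMT genes, with 95% confidence intervals (lines) and the values obtained when each library was left out in turn (grey ticks). SNAI2 (0.55) passed the threshold, the interval of ESRP1 (-1.52 to -0.24) is among the widest, and a tick of SNAI1 lies on the other side of 0.

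The junction genes whose proteins the study used as EMT markers were measured beside these regulators. CDH1, the main target of SNAI and ZEB repression, was at 0.290 ± 0.253 CPM with control-siRNA and 0.168 ± 0.123 CPM with TAZ-siRNA (SD, n = 3 each; edgeR adjusted p = 0.484). Its counts of 7, 36 and 9 against 13, 2 and 16 leave a wide margin, and the confidence interval of the log2 fold change was -2.32 to 0.81. CDH2 (N-cadherin), at 0.327 ± 0.0829 and 0.165 ± 0.181 CPM (SD, n = 3 each; edgeR adjusted p = 0.359), was as low. OCLN (occludin, of tight junctions) was at 21.4 ± 1.51 and 24.8 ± 1.78 CPM (SD, n = 3 each), without overlap but short of the threshold (log2 fold change 0.22, edgeR adjusted p = 0.0638).

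Of the other transcription factors known to induce EMT, 14 were listed and 10 were tested. In edgeR 3 rose and 0 fell (30% called, beside 22.1% of all genes tested, so near the background). The median log2 fold change was 0.19, or 0.09 with GC content and length corrected for and 0.29 without control-siRNA replicate 3. Of the 10 genes, 4 had an unadjusted p under 0.05, and in DESeq2 4 rose and 0 fell. The 3 called in edgeR were FOXQ1, a forkhead factor (0.81), and the SOX factors SOX4 (0.64) and SOX9 (0.34). FOXQ1 was at 8.67 ± 1.02 and 15.2 ± 0.540 CPM and SOX4 at 14.8 ± 0.524 and 23.1 ± 2.26 CPM (SD, n = 3 each). All 3 were called with each library left out. TCF12, the listed factor with the highest mean CPM (not corrected for length), had a log2 fold change of 0.01 (edgeR adjusted p = 0.91).

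Mesenchymal and matrix genes other than VIM and FN1 had the largest share of called genes among the 4 related lists. As the lists were chosen with earlier results of these data known, this share is a description and not a test. Of 25 listed genes 21 were tested, and 11 rose while 2 fell, so that 61.9% were called beside 22.1% of all genes, and the median log2 fold change was 0.37 (0.24 with GC content and length corrected for, 0.20 without TAZ-siRNA replicate 1 and 0.21 without control-siRNA replicate 2). The largest rises were those of MMP2, a matrix metalloproteinase (0.90), COL5A1, a chain of type V collagen (0.87), CDH11, a mesenchymal cadherin (0.77), and SPARC, a matrix glycoprotein (0.74). COL5A1 went from 113 ± 4.62 to 206 ± 28.2 CPM and SPARC from 54.2 ± 2.37 to 90.5 ± 4.40 CPM (SD, n = 3 each). Among the genes that fell was AXL, a receptor tyrosine kinase (-0.35), named after its values were seen and called with each of the 6 libraries left out. NT5E, the gene of the list with the highest mean CPM, had a log2 fold change of 0.04 (edgeR adjusted p = 0.623). Of the fibroblast markers COL1A1, COL3A1, DCN, LUM and PDGFRB, 2 were tested and both rose (COL1A1 and PDGFRB). As the mesenchymal list also holds both, they are not a separate result. COL3A1 (means of 0.128 CPM with control-siRNA and 0.104 CPM with TAZ-siRNA) and LUM (0.011 and 0.030 CPM) had too few counts to be tested. DCN was at 0 in all libraries. The summed level of the 5 markers was 20.1 to 22.02 CPM with control-siRNA and 27.6 to 28.4 CPM with TAZ-siRNA. Of 4 leukocyte markers 3 were at 0, and the sum was 0.453 to 0.645 and 0.699 to 0.912 CPM. The part of other cells in these results was not tested.

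Epithelial genes had a share of called genes near the background. Of 32 listed genes 26 were tested, and 6 rose while 1 fell (26.9% called, beside 22.1% of all genes tested), with 11 called without TAZ-siRNA replicate 3. Over all tested genes of the list, called or not, 13 log2 fold changes were positive and 13 negative. The median log2 fold change was 0.04, or 0.0046 with GC content and length corrected for, and it was 0.0081 without control-siRNA replicate 1, 0.02 when TAZ-siRNA replicate 1 was left out and 0.13 when control-siRNA replicate 2 was. The rises included CDS1, an enzyme of phospholipid synthesis (0.81), MAL2, a protein of apical transport (0.63), and CGN, the tight junction protein cingulin (0.60), and the gene that fell was KRT7, a keratin of simple epithelia (-0.49). KRT18, the gene of the list with the highest mean CPM, had a value of -0.15 (edgeR adjusted p = 0.192). CGN was called in 3 of the 6 analyses with a library left out. A separate set of 10 luminal breast markers, some of them also on this list, had a summed level of 1038 to 1131 CPM with control-siRNA and 968.5 to 1095 CPM with TAZ-siRNA, with 1 gene, GATA3, lower. Most of this sum came from KRT8 (means of 500 and 496 CPM) and KRT18 (557 and 503 CPM). The hormone receptor genes ESR1 (0.014 and 0.057 CPM) and PGR (0.01 and 0 CPM) were near 0.

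Corepressors of SNAI and ZEB proteins and genes of SNAI protein turnover were all expressed. All 21 were tested, and 3 rose while 4 fell (33.3% called, beside 22.1% of all genes tested). The number called was 3 at an adjusted p under 0.01, in limma, and without control-siRNA replicate 2, control-siRNA replicate 3 or TAZ-siRNA replicate 1, and 12 without TAZ-siRNA replicate 3. The median log2 fold change was 0.06, or -0.02 with GC content and length corrected for. AJUBA, a LIM protein that joins Snail to its corepressors and is also part of Hippo signalling, fell by 0.50 on the log2 scale, from 266 ± 9.79 to 188 ± 11.1 CPM (SD, n = 3 each). GSK3B, the kinase that marks Snail for degradation, rose (0.36), as did HDAC1, a histone deacetylase (0.24). FBXL5, a subunit of a ubiquitin ligase for Snail, was lower (-0.25) but was called in only 2 of the 6 analyses with a library left out.

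**Figure D4:**
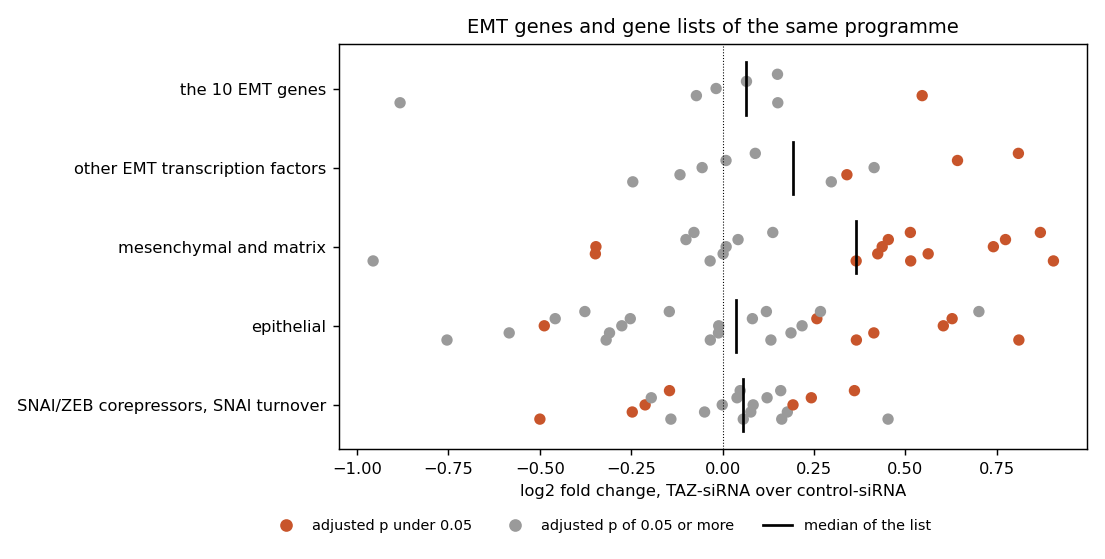
Log2 fold change of TAZ-siRNA over control-siRNA (horizontal axis) for each tested gene of the EMT genes and of 4 related lists. Orange points passed an adjusted p of 0.05, grey points did not, and black lines mark the medians. The median of the mesenchymal and matrix genes (0.37) lies furthest to the right, and that of the epithelial genes (0.04) near 0.

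For the 3 members with the highest mean CPM, the genes whose log2 CPM followed theirs most closely over the 6 libraries were sought among 9937 others. For VIM these were ATP5F1C (Pearson r 0.9985), PSMC3 (0.9939) and ROMO1 (0.9925), for FN1 they were ZSCAN22 (0.9955), SCARB2 (0.9952) and TM9SF4 (0.9939), and for ZEB1 they were CCNI (0.9865), RAB18 (0.9798) and FBXO8 (0.9762). With 6 libraries and so many candidates, high values are found for any gene, and they are given as a description only.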

How the data were processed

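Polyadenylated RNA of 6 MDA-MB-231 preparations was sequenced from strand-specific libraries as paired ends of 100 bases. After trimming, the authors aligned the reads with HISAT2 to GRCh38, and StringTie gave values for RefSeq genes and transcripts (versions not given in the sources used here). The submitters' processing notes also list Bowtie 0.12.2 and the mouse build mm8, with no role stated. The deposited estimated count of each gene is a whole number that the authors derived from coverage, the deposited FPKM was scaled by the authors for length and library size, and the deposited TPM, scaled to a common total, was not used. Because StringTie divides shared reads among transcripts, transcript values are less certain than gene values.

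Groups and replicate numbers came from the labels, whose titles number the replicates 3 to 5 and whose columns number them 1 to 3. Counts were compared with edgeR 4.0.16 in R 4.3.3 (TMM normalization, filterByExpr with a count minimum of 10, robust quasi-likelihood test, Benjamini-Hochberg adjustment over 16966 genes, adjusted p under 0.05). The biological coefficient of variation was 8.04%. Counts of replicates differed beyond sampling noise in all pairs. Where the preparations were not separate cultures, p-values measure technical spread only. Alternatives were DESeq2 1.42.0, other size factors and filters, a replicate block, offsets for GC content and length (spline with 5 degrees of freedom, known for 89.7% of genes tested), limma 3.58.1 on log2 values of FPKM with pseudocounts of 1 and 0.1, a threshold of 0.01, and each library left out. Exact permutation tests of 3 against 3 libraries cannot go below a p of 0.1, and gave 0.1 for SNAI2, FN1 and ESRP1. The scripts were tested on simulated data. Sequences came from RefSeq tables (GRCh38.p14), in which 5 of the 10 genes had a promoter entry. The genes and lists were chosen with earlier results of these data known. Named genes were the 10 members, WWTR1, CDH1, CDH2 and OCLN, the 4 largest changes past the threshold and the highest gene of each list, and the genes most alike. ESRP2, GRHL1, GRHL3, GATA3, KRT8, ESR1 and PGR were named after their values were seen. A gene of the mesenchymal and matrix list is counted but not reported here by itself.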

Additional observations from a re-analysis of the deposited data

How the results depend on the processing

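The increase of SNAI2 was called under every alternative that was run, and no alternative called SNAI1 or VIM. Of the 7 EMT genes tested, 1 was called, against 3 in DESeq2, with the replicate block, and with GC content and length offsets with the replicate block, and 2 with at least 10 counts in every library or limma on log2(FPKM + 1). With each library left out, 1 to 3 were called, 3 of them without TAZ-siRNA replicate 3 (SNAI2, FN1 and ESRP1). The sign turned for SNAI1, whose log2 fold change was -0.14 to 0.38 with a library left out and negative without TAZ-siRNA replicate 3, and for ZEB1 with GC content and length offsets (-0.035) and with these and the replicate block (-0.041). ZEB2 was called under offsets and block together (-0.14, adjusted p = 0.0332). The causes were not tested, and leaving out a library also leaves fewer samples.

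Over all genes, 3749 were called, 1720 at an adjusted p under 0.01, and 1937 to 5928 with a library left out, the highest count being that without TAZ-siRNA replicate 3 and those without control-siRNA replicate 1, 2 or 3 or TAZ-siRNA replicate 1 being 1937 to 2262. The share of called genes that were higher was 53.7%, against 40.9% with GC content and length offsets and 39.2% with these and the block. The number of corepressor and turnover genes called, 7, was 3 at the stricter threshold and in both limma analyses, 11 with the replicate block, and 3 to 12 with a library left out. That of epithelial genes, 7, was 11 with the block and 5 to 11 with a library left out, that of mesenchymal and matrix genes, 13, was 10 to 15, and that of other EMT transcription factors 3 to 4.

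Whether the replicate numbers pair the samples is not known. Deviations of same-numbered libraries correlated at -0.01, 0.02 and 0.107, the last being the highest of all pairs. Control-siRNA replicate 2 with TAZ-siRNA replicate 1 reached 0.106, and control-siRNA replicate 1 correlated best with TAZ-siRNA replicate 2, at 0.02. Values this weak cannot decide the question. With the replicate number as a block 5122 genes were called. At this depth CDH1 and CDH2 rest on few counts, and TWIST1, TWIST2 and GRHL2 are at or under the floor of 3 counts, where low expression and none cannot be told apart.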
